A study of Homo sapiens with 16 samples.

Results

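The genes described here make and remodel fatty acids. They are SREBF1, the transcription factor gene of the pathway; ACLY, ACACA, ACACB, FASN and ME1, which supply and join the building blocks; and ELOVL6, SCD, FADS1 and FADS2, which lengthen and desaturate the products. They were taken by gene symbol as members of the pathway, and they make up 10 of the 67938 gene identifiers in each count table. RNA was sequenced from 2 established human liver cancer lines, SNU-449, which came from a hepatocellular carcinoma and resembles mesenchymal cells, and HepG2, which came from a hepatoblastoma and keeps hepatocyte traits. Cells were transfected for 48 h with a mixture of 2 siRNAs, siPANAD-1 and siPANAD-2, against PANAD (gene symbol C7orf25), or with a control siRNA named NC, and then split into nuclear and cytoplasmic extracts. Each of the 8 groups (siPANAD or NC, nucleus or cytoplasm, SNU-449 or HepG2) had 2 libraries, described as biological duplicates. The 2 siRNAs were given only as a mixture and set against 1 control, so no effect can be assigned to either siRNA alone.

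Liver cells turn surplus carbohydrate into fat. Citrate leaves the mitochondria and ATP citrate lyase (ACLY) splits it into acetyl-CoA, acetyl-CoA carboxylase makes malonyl-CoA, and fatty acid synthase (FASN) builds palmitate with NADPH that malic enzyme (ME1) helps to supply. ELOVL6 lengthens palmitate to stearate, SCD places the first double bond, and FADS2 and FADS1 act in turn to make the polyunsaturated fatty acids. The SREBP-1 protein encoded by SREBF1 drives transcription of most of these enzymes when insulin is present or sterols and polyunsaturated fats are scarce, and promoters that answer to it commonly carry a sterol regulatory element beside boxes for NF-Y and Sp1.

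Total counts per library ran from 16238235 to 30321908; HepG2 cytoplasm NC replicate 2 was the deepest and the next reached 19498081. The targeted gene could not check the knockdown, because C7orf25 had 3 and 4 counts with siPANAD and 5 and 7 with NC in the SNU-449 nucleus, and at most 4 counts in every other library. MALAT1, an RNA held in the nucleus, lay at 370 to 634 CPM (counts scaled by library size) in the nuclear and 2.21 to 5.84 CPM in the cytoplasmic libraries. NEAT1, another nuclear RNA, lay at 547 to 3274 CPM in the nuclear and 4.77 to 89.6 CPM in the cytoplasmic libraries, and the cytoplasmic mRNA of GAPDH at 884 to 1365 CPM in the nuclear and 4045 to 5934 CPM in the cytoplasmic libraries. Nuclear NEAT1 itself was higher with siPANAD, at 2526 and 2682 CPM against 547 and 563 CPM with NC in SNU-449. In the HepG2 nucleus it stood at 3274 and 2875 CPM against 1168 and 1344 CPM. MALAT1 stood at 634 and 593 CPM with siPANAD and at 409 CPM in both NC libraries of the SNU-449 nucleus. In the HepG2 nucleus MALAT1 was at 391 and 370 CPM against 396 and 370 CPM. Of 13 hepatocyte markers, 5 averaged above 1 CPM in SNU-449 and all 13 in HepG2. Of 8 mesenchymal markers, all 8 did in SNU-449 and 5 in HepG2, but their summed level, 1613 to 2759 CPM in SNU-449 and 1237 to 7465 CPM in HepG2, did not separate the lines. The adipocyte markers ADIPOQ and LEP had at most 1 count in any library, and PTPRC, the pan-leukocyte marker, at most 2, but of the other immune and blood markers CD14 lay at 9.85 to 41.7 CPM in SNU-449 and LYZ at 81.3 to 505 CPM in HepG2. Marker sums also moved with siPANAD. In HepG2 the summed level of the 4 adipocyte markers was higher with siPANAD, at 14.3 to 15.2 CPM against 5.60 to 6.30 CPM with NC in the nucleus and 19.0 to 24.1 CPM against 9.60 to 12.8 CPM in the cytoplasm. Most of it came from CIDEC, a lipid droplet gene, and in the HepG2 nucleus PLIN1, another such gene, stood at 2.15 and 2.86 CPM with siPANAD and 0.431 and 0.341 CPM with NC. In the SNU-449 nucleus this sum was 1.29 to 1.34 CPM with siPANAD and 0.339 to 0.452 CPM with NC. The mesenchymal sum in HepG2 was 3844 to 3873 CPM with siPANAD and 7383 to 7465 CPM with NC in the nucleus. In the cytoplasm it was 1237 to 1250 CPM against 2699 to 3081 CPM. Most of it came from FN1, which stood at 3688 and 3716 CPM with siPANAD and 7216 and 7314 CPM with NC in the nucleus. SPARC went the other way there, at 104.6 and 109.5 CPM against 78.9 and 72.7 CPM. The hepatocyte sum in HepG2 was 26120 to 26200 CPM with siPANAD and 29700 to 32650 CPM with NC in the nucleus. In the cytoplasm that sum was 31360 to 32740 CPM against 24970 to 26770 CPM. The hepatocyte sum in SNU-449 was 134 to 137 CPM with siPANAD and 318 to 388 CPM with NC in the nucleus, and 31.8 to 35.9 CPM against 70.0 to 87.8 CPM in the cytoplasm. The part of these shifts in the results below was not tested.

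The 3 promoter windows below belong to the genes whose change the results turn on and for which the table used held a single window: SCD and FADS1, called higher in every knockdown comparison, and SREBF1, called higher in the SNU-449 nucleus and lower in both HepG2 fractions. Each runs from 250 bases before to 50 bases after the gene's start in RefSeq (GRCh38.p14) and is written 5′ to 3′ on the gene's own strand, with NF-Y boxes (CCAAT) and Sp1 boxes (GGGCGG), on either strand, in capitals. The windows lie at chr10:100346983-100347282 (SCD, plus strand), chr11:61816954-61817253 (FADS1, minus strand) and chr17:17836937-17837236 (SREBF1, minus strand).
SCD: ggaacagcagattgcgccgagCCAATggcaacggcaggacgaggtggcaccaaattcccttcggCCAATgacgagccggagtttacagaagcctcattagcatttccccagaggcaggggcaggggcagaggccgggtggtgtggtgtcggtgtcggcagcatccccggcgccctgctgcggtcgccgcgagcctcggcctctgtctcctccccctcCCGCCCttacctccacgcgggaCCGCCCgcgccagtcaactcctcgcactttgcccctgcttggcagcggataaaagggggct
FADS1: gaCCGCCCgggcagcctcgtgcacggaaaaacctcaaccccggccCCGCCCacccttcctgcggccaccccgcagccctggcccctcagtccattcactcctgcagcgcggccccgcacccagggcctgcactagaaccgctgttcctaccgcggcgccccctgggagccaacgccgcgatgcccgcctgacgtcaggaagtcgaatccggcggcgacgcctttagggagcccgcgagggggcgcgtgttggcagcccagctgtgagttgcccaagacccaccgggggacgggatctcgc
SREBF1: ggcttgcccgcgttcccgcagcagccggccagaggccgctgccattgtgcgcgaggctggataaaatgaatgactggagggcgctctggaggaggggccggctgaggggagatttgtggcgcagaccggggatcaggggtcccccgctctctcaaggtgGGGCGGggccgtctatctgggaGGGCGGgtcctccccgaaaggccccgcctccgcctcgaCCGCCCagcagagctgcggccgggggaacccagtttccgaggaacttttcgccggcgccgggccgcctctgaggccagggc

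SCD held 2 NF-Y and 2 Sp1 boxes, FADS1 held 2 Sp1 boxes and SREBF1 held 3 Sp1 boxes. The table had 14 windows for 9 of the 10 genes and none for FASN, and its windows for FADS2 lie at alternative starts upstream of the usual one. A Sp1 box stood in 11 of the 14 windows and in 45.0% of all 35116 windows, and an NF-Y box in 7 of the 14 and in 34.6% of all windows. The sterol regulatory element (TCACNCCAC) and the E-box (CACGTG), on either strand, were in none of the 14 windows; 1.13% and 7.26% of all windows hold them. These are matches of letters and not measured binding sites.

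Of the 10 genes, 7 were called higher and 1 lower with siPANAD in the SNU-449 nucleus, where 46.0% of all 17895 genes tested were called, 22.1% higher and 23.9% lower. A call means an adjusted p under 0.05 by edgeR's quasi-likelihood test with Benjamini-Hochberg adjustment over all genes. In the SNU-449 cytoplasm 4 were higher and 2 lower, with 39.7% of all genes called, 19.6% higher and 20.1% lower. In HepG2 ME1 was too low to be tested. Of the other 9 genes, 5 were higher and 1 lower in the HepG2 nucleus (45.6% of all 17499 genes called, 22.0% higher and 23.6% lower), and 4 were higher and 2 lower in the HepG2 cytoplasm (47.9% called, 23.7% higher and 24.2% lower). The median log2 fold change of the tested members was 0.33 in the SNU-449 nucleus, 0.19 in the SNU-449 cytoplasm, 0.41 in the HepG2 nucleus and 0.29 in the HepG2 cytoplasm, beside medians of all genes tested of -0.01, 0.04, -0.03 and 0.00. The 3 desaturase genes SCD, FADS1 and FADS2 were called higher in all 4 comparisons, and no other member was. How many of all genes were called higher in all 4 was not counted, so this overlap has no background beside it. Without 1 library the count of calls was as low as 3 in the SNU-449 cytoplasm (without cytoplasm NC replicate 1 or cytoplasm siPANAD replicate 1) and 3 in the HepG2 cytoplasm (without cytoplasm siPANAD replicate 1). Each p-value rests on the spread between the 2 libraries of a group, estimated over all groups of a fit and shared across genes. In bulk extracts fewer cells with an mRNA and less of it per cell cannot be told apart.

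**Figure D1:**
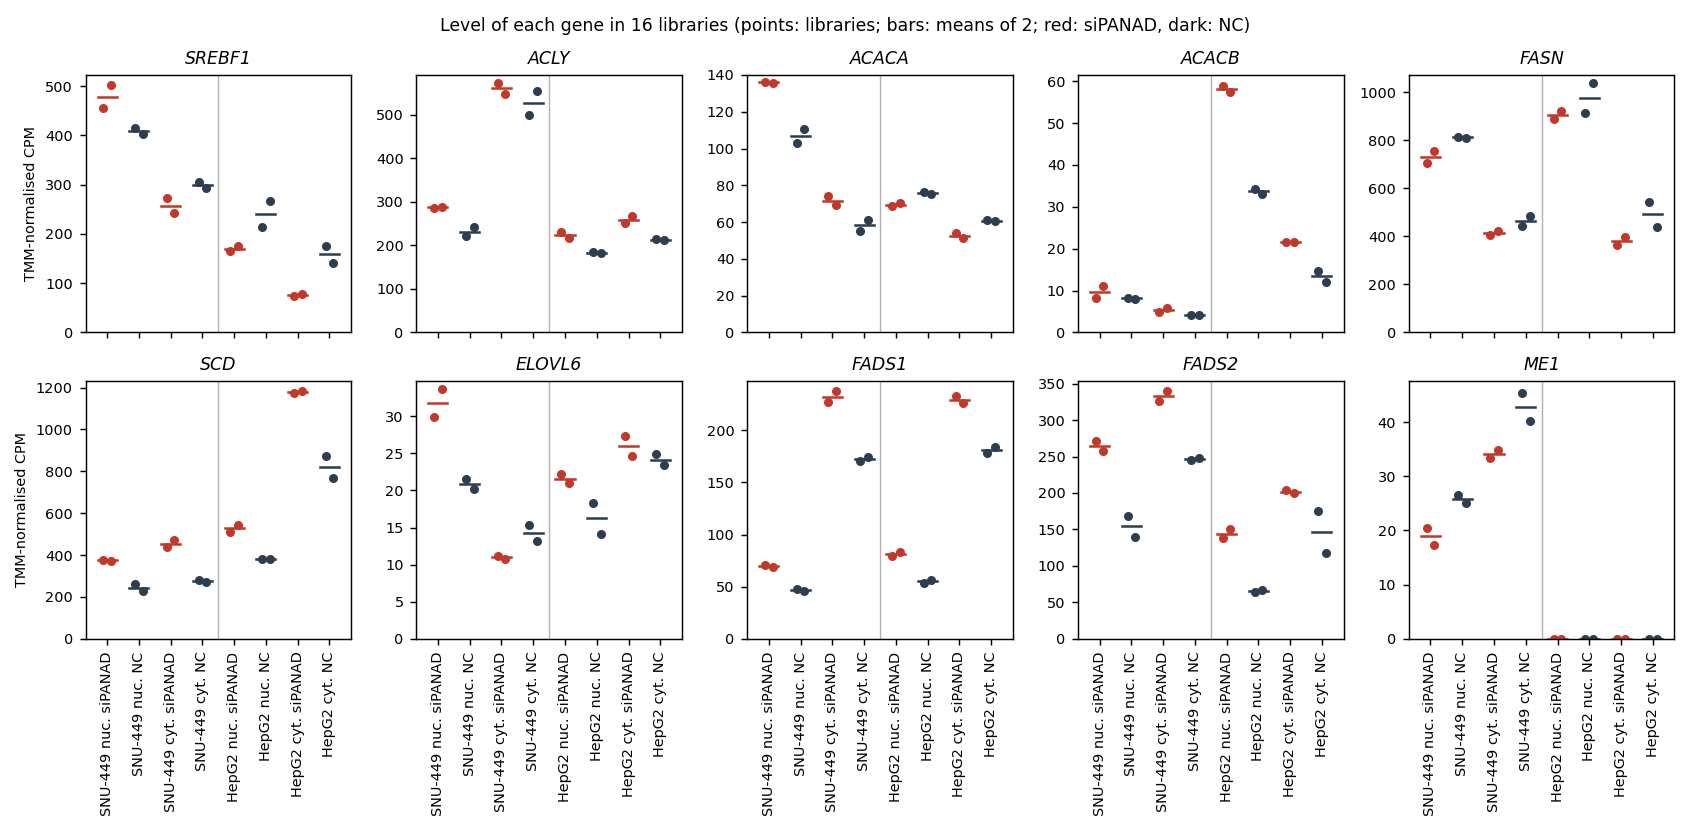
TMM-normalised CPM (linear axis from 0) of the 10 genes in the 16 libraries, with siPANAD libraries in red and NC libraries in dark blue, points for libraries and bars for means of 2. SCD, FADS1 and FADS2 lie higher with siPANAD in all 4 pairs of groups, while SREBF1 lies higher in the SNU-449 nucleus and lower in both HepG2 fractions.

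SREBF1 (ENSG00000072310, chromosome 17, 17810399 to 17837002, minus strand, GRCh38) encodes SREBP-1, the activator of the pathway. In the HepG2 cytoplasm it stood at 73.6 and 78.1 CPM with siPANAD and at 175.8 and 140.8 CPM with NC (here and below CPM after TMM scaling, which evens out composition between libraries). In the HepG2 nucleus it stood at 164.4 and 174.8 CPM with siPANAD and at 214 and 267 CPM with NC. The siPANAD libraries were below both NC libraries in each fraction. SREBF1 fell with siPANAD in the HepG2 cytoplasm (log2 fold change -1.06, standard error [SE] 0.14; edgeR adjusted p = 8.1e-07) and in the HepG2 nucleus (-0.51, SE 0.14; edgeR adjusted p = 0.0039).

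The nuclear change in SNU-449 had the other sign. The nucleus held 454.5 and 502 CPM with siPANAD and 415 and 402 CPM with NC, so that both siPANAD libraries were above both NC libraries, and SREBF1 rose there (0.23, SE 0.09; edgeR adjusted p = 0.038). The SNU-449 cytoplasm held 273 and 241 CPM with siPANAD and 306 and 293.5 CPM with NC, with a log2 fold change of -0.22 (SE 0.09) that did not pass the test (edgeR adjusted p = 0.051). The SNU-449 calls were not firm. The nuclear one was lost without nucleus siPANAD replicate 2 (0.15), nucleus NC replicate 1 (0.24) or 2 (0.19) or either cytoplasm siPANAD library (0.24 each), with no filter on low counts (0.19) and in a fit of the 2 groups alone (0.24), while the cytoplasmic value passed in that fit and without either nucleus NC library (-0.23 each). In HepG2 the nuclear call was lost without nucleus NC replicate 2 (-0.35) or nucleus siPANAD replicate 1 (-0.46), and the cytoplasmic call held under all 14 alternatives. Of its exonic bases 6.9% lie opposite RAI1, and whether counting used the strand was not given in the sources used here.

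ACLY (ENSG00000131473, chromosome 17, 41866908 to 41930542, minus strand) splits citrate into acetyl-CoA. It had 286 and 288.5 CPM with siPANAD and 221 and 242 CPM with NC in the SNU-449 nucleus, where it rose (0.31, SE 0.09; edgeR adjusted p = 0.0048). In the SNU-449 cytoplasm the groups overlapped, with 573 and 548 CPM with siPANAD and 500.3 and 554.5 CPM with NC (0.09, SE 0.09; edgeR adjusted p = 0.47). In HepG2 the siPANAD libraries lay above both NC libraries in each fraction, with 230.4 and 218 CPM against 185 and 182 CPM in the nucleus and 252 and 266 CPM against 213 and 212 CPM in the cytoplasm. The log2 fold change was 0.29 (SE 0.12) in both HepG2 fractions and missed the threshold (edgeR adjusted p = 0.058 in the nucleus and 0.059 in the cytoplasm). DESeq2 called both (0.28 each, adjusted p = 0.036). The edgeR test also called the nuclear value on library totals (0.45), in the 2 groups alone (0.33) and without cytoplasm NC replicate 1 (0.27) or 2 (0.32), and the cytoplasmic one without nucleus NC replicate 1 or 2 (0.28 each). The SNU-449 nuclear call was lost without nucleus NC replicate 1 (0.24).

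The 2 acetyl-CoA carboxylases, which make malonyl-CoA, were called in different lines. ACACA (ENSG00000278540, chromosome 17, 37084988 to 37406818, minus strand), the cytosolic enzyme of fatty acid synthesis, stood at 136 and 135.9 CPM with siPANAD and 103 and 111 CPM with NC in the SNU-449 nucleus (0.35, SE 0.09; edgeR adjusted p = 0.0022). It rose in the SNU-449 cytoplasm as well, with 74.3 and 69.0 CPM against 55.0 and 61.4 CPM (0.30, SE 0.10; edgeR adjusted p = 0.014), a call lost without cytoplasm NC replicate 1 (0.22) or cytoplasm siPANAD replicate 1 (0.27). In HepG2 both siPANAD libraries were below both NC libraries in each fraction, by amounts that did not pass: 68.6 and 70.3 CPM against 76.2 and 75.2 CPM in the nucleus (-0.12, SE 0.12; edgeR adjusted p = 0.41) and 53.8 and 51.3 CPM against 61.0 and 60.6 CPM in the cytoplasm (-0.21, SE 0.12; edgeR adjusted p = 0.16). On library totals the HepG2 nuclear value was 0.04 and the cytoplasmic one was called (-0.32).

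ACACB (ENSG00000076555, chromosome 12, 109116595 to 109268226, plus strand) encodes the carboxylase at the mitochondrial surface, whose malonyl-CoA restrains fatty acid entry for oxidation. It stood at 58.8 and 57.3 CPM with siPANAD and 34.3 and 33.2 CPM with NC in the HepG2 nucleus, and it rose there (0.79, SE 0.13; edgeR adjusted p = 1.5e-05). In the HepG2 cytoplasm it rose too, with 21.7 and 21.5 CPM with siPANAD and 14.6 and 12.1 CPM with NC (0.70, SE 0.14; edgeR adjusted p = 0.00021). Both HepG2 calls held under all 14 alternatives. In SNU-449 it was a low-level gene. The nucleus had 8.12 and 11.0 CPM with siPANAD and 8.26 and 7.96 CPM with NC, which overlap (0.24, SE 0.16; edgeR adjusted p = 0.22; 0.00 without nucleus siPANAD replicate 2). The SNU-449 cytoplasm had 4.95 and 5.94 CPM with siPANAD and 4.18 and 4.04 CPM with NC (0.41, SE 0.21; edgeR adjusted p = 0.13).

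FASN (ENSG00000169710, chromosome 17, 82078333 to 82098332, minus strand), the multidomain synthase that builds palmitate, was not called higher in any comparison. In the HepG2 cytoplasm it had 362 and 397 CPM with siPANAD and 544 and 439 CPM with NC, both siPANAD libraries being lower, and it fell (-0.37, SE 0.14; edgeR adjusted p = 0.032). That call was lost without cytoplasm NC replicate 1 (-0.22), cytoplasm siPANAD replicate 1 (-0.34) or nucleus siPANAD replicate 1 (-0.37) or 2 (-0.38). The HepG2 nucleus had 887 and 923 CPM with siPANAD and 912 and 1040 CPM with NC, which overlap (-0.11, SE 0.14; edgeR adjusted p = 0.55; 0.05 on library totals). In SNU-449 the siPANAD libraries were below both NC libraries in each fraction, with 705 and 754 CPM against 815 and 810.3 CPM in the nucleus (-0.16, SE 0.09; edgeR adjusted p = 0.15) and 405 and 422 CPM against 444 and 486 CPM in the cytoplasm (-0.17, SE 0.09; edgeR adjusted p = 0.13). Neither passed the test.

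ME1 (ENSG00000065833, chromosome 6, 83210389 to 83431071, minus strand), the cytosolic malic enzyme that yields NADPH, was read in SNU-449 only. The nucleus had 20.5 and 17.4 CPM with siPANAD and 26.6 and 25.1 CPM with NC, and the cytoplasm 33.4 and 34.8 CPM with siPANAD and 45.3 and 40.3 CPM with NC. The siPANAD libraries were the lower ones in each fraction, and ME1 fell in the nucleus (-0.45, SE 0.12; edgeR adjusted p = 0.0019) and the cytoplasm (-0.33, SE 0.12; edgeR adjusted p = 0.023). The nuclear call was lost without nucleus siPANAD replicate 2 (-0.34), and the cytoplasmic one without cytoplasm NC replicate 1 (-0.24) or cytoplasm siPANAD replicate 1 (-0.28) or 2 (-0.35). In HepG2 ME1 had 1 count in nucleus siPANAD replicate 1 and 0 in the other 7 libraries.

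SCD (ENSG00000099194, chromosome 10, 100347124 to 100364834, plus strand), whose window is printed above, encodes the desaturase that turns stearate into oleate. In the SNU-449 cytoplasm it stood at 440.3 and 470.1 CPM with siPANAD and 280.3 and 270.3 CPM with NC, and in the SNU-449 nucleus at 377.5 and 374 CPM with siPANAD and 261 and 228 CPM with NC. The groups were apart in both fractions, and SCD rose by 0.73 (SE 0.09; edgeR adjusted p = 3.6e-08) in the cytoplasm and 0.62 (SE 0.09; edgeR adjusted p = 6.8e-07) in the nucleus. In the HepG2 cytoplasm it reached 1176 and 1184 CPM with siPANAD, against 871 and 767 CPM with NC. The HepG2 nucleus had 510.1 and 544 CPM with siPANAD and 383 and 382.9 CPM with NC. The rises in HepG2 were 0.53 in the cytoplasm (SE 0.13; edgeR adjusted p = 0.0019) and 0.46 in the nucleus (SE 0.13; edgeR adjusted p = 0.0064). Only the HepG2 nuclear call was lost under any of the 14 alternatives, without nucleus siPANAD replicate 2 (0.40).

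FADS2 (ENSG00000134824, chromosome 11, 61792980 to 61867354, plus strand), the first desaturase of the polyunsaturated pathway, showed the largest rise of any member. In the HepG2 nucleus it stood at 138 and 150.5 CPM with siPANAD and 64.8 and 67.0 CPM with NC (1.13, SE 0.15; edgeR adjusted p = 9.9e-07). The HepG2 cytoplasm had 205 and 199.5 CPM with siPANAD and 175 and 117 CPM with NC (0.47, SE 0.15; edgeR adjusted p = 0.0099). Both siPANAD libraries were above both NC libraries in each fraction. The 2 NC libraries of the HepG2 cytoplasm lay far apart. The value there was 0.21 and no longer called without NC replicate 2, the deepest library, and 0.78 without NC replicate 1, and the call was also lost without siPANAD replicate 1 (0.43).

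In SNU-449 FADS2 rose in both fractions as well. The nucleus had 271 and 257 CPM with siPANAD and 168 and 140.1 CPM with NC (0.77, SE 0.09; edgeR adjusted p = 1.7e-08), and the cytoplasm had 326 and 339.9 CPM with siPANAD and 245 and 247.5 CPM with NC (0.43, SE 0.09; edgeR adjusted p = 0.00024). These SNU-449 calls and the HepG2 nuclear one held under all 14 alternatives.

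FADS1 (ENSG00000149485, chromosome 11, 61799625 to 61829318, minus strand) acts after FADS2 in the same pathway. It lies within the annotated span of FADS2, on the opposite strand. In the SNU-449 nucleus it stood at 71.2 and 68.9 CPM with siPANAD and 48.2 and 45.4 CPM with NC, and in the SNU-449 cytoplasm at 227 and 238 CPM with siPANAD and 171 and 175 CPM with NC. The HepG2 nucleus had 79.0 and 83.0 CPM with siPANAD and 54.0 and 56.7 CPM with NC, and the HepG2 cytoplasm 233 and 226 CPM with siPANAD and 178 and 184 CPM with NC. The siPANAD libraries were above both NC libraries in all 4 comparisons. FADS1 rose by 0.58 in the SNU-449 nucleus (SE 0.09; edgeR adjusted p = 3.0e-06), 0.43 in the SNU-449 cytoplasm (SE 0.09; edgeR adjusted p = 0.00017), 0.55 in the HepG2 nucleus (SE 0.12; edgeR adjusted p = 0.00075) and 0.34 in the HepG2 cytoplasm (SE 0.12; edgeR adjusted p = 0.023). Only the HepG2 cytoplasmic call was lost under any alternative: on library totals (0.23), with no filter on low counts (0.26) and without cytoplasm NC replicate 1 (0.31) or cytoplasm siPANAD replicate 1 (0.28) or 2 (0.33). FADS1 and FADS2 share 490 exonic bases on opposite strands, 4.8% of the exonic bases of FADS1 and 4.4% of those of FADS2, so their counts may not be fully separate.

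ELOVL6 (ENSG00000170522, chromosome 4, 110045846 to 110199199, minus strand), the elongase that turns palmitate into stearate, moved in opposite directions in the 2 fractions of SNU-449. Its nucleus had 29.9 and 33.6 CPM with siPANAD and 21.6 and 20.1 CPM with NC, and its cytoplasm 11.1 and 10.8 CPM with siPANAD and 15.3 and 13.2 CPM with NC. ELOVL6 rose in the SNU-449 nucleus (0.61, SE 0.12; edgeR adjusted p = 5.9e-05) and fell in the SNU-449 cytoplasm (-0.38, SE 0.15; edgeR adjusted p = 0.038). The nuclear rise held under all 14 alternatives. The cytoplasmic fall was lost with DESeq2 (-0.37), on library totals (-0.35), and without cytoplasm NC replicate 1 (-0.27), cytoplasm siPANAD replicate 1 (-0.38) or 2 (-0.35), or nucleus siPANAD replicate 1 or 2 (-0.38 each).

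In the HepG2 nucleus ELOVL6 had 22.2 and 21.0 CPM with siPANAD and 18.4 and 14.2 CPM with NC, and it rose (0.41, SE 0.14; edgeR adjusted p = 0.022). That call was lost with DESeq2 (0.40) and without nucleus NC replicate 2 (0.22) or nucleus siPANAD replicate 1 (0.37) or 2 (0.44). The HepG2 cytoplasm had 27.4 and 24.6 CPM with siPANAD and 24.9 and 23.4 CPM with NC, which overlap (0.11, SE 0.15; edgeR adjusted p = 0.57; -0.01 without cytoplasm siPANAD replicate 1).

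**Figure D2:**
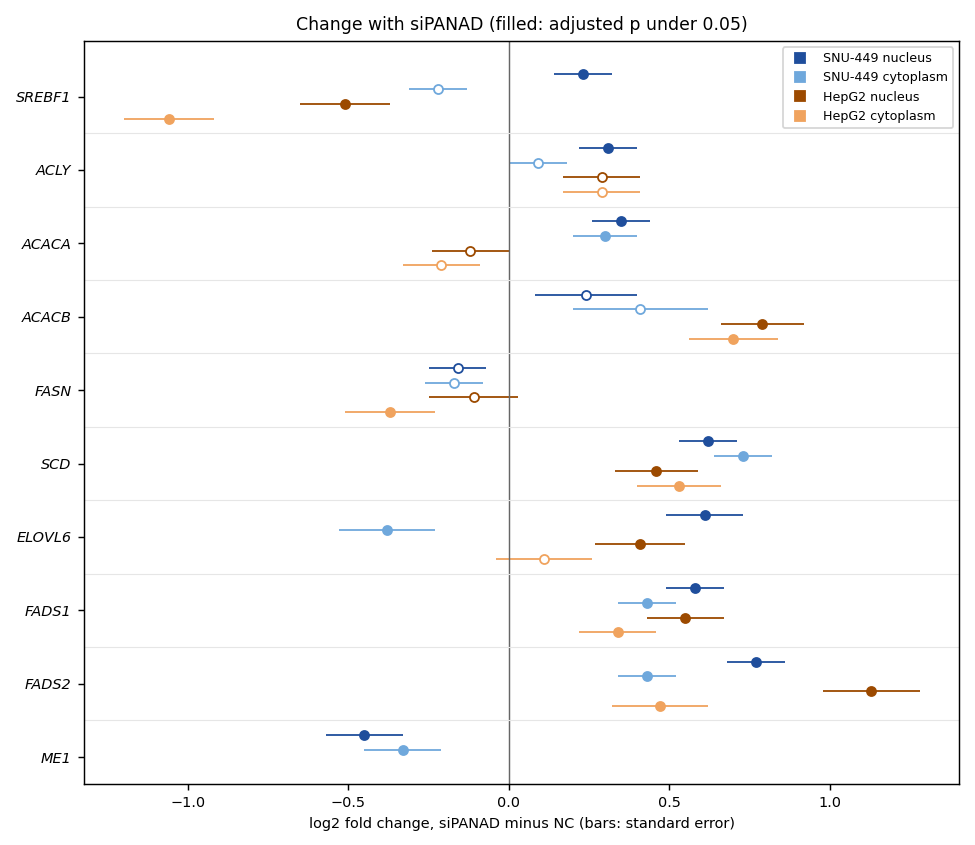
Log2 fold change of each gene, siPANAD minus NC (horizontal axis), in the nucleus and cytoplasm of SNU-449 (blue) and HepG2 (orange), with bars for the standard error and filled points for an edgeR adjusted p under 0.05 (2 libraries per group). SCD, FADS1 and FADS2 are filled and to the right of 0 in all 4 comparisons, FADS2 reaches 1.13 in the HepG2 nucleus and SREBF1 -1.06 in the HepG2 cytoplasm.

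The 10 genes together took a larger share of all counts in siPANAD libraries in 3 of the 4 pairs of groups by more than the spread of the duplicates. They held 0.323% and 0.335% of counts with siPANAD and 0.274% and 0.270% with NC in the SNU-449 nucleus, and 0.177% and 0.179% against 0.154% and 0.155% in the SNU-449 cytoplasm. The HepG2 nucleus had 0.301% and 0.304% with siPANAD and 0.243% and 0.256% with NC. In the HepG2 cytoplasm the shares were 0.178% and 0.181% with siPANAD and 0.176% and 0.160% with NC. That gap is small beside the distance between the NC libraries. On library totals the median log2 fold change of all genes was 0.05 and 0.06 in the SNU-449 nucleus and cytoplasm. It was 0.14 in the HepG2 nucleus and -0.12 in the HepG2 cytoplasm, and the shares are not corrected for this.

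How an mRNA is split between nucleus and cytoplasm bears on the study's question of mRNA export, so the ratio was compared in NC cells first. TMM sets it relative to the typical gene of each fraction, and it is not an amount per cell. In SNU-449 NC 5 of the 10 genes were higher in the nucleus and 4 lower, where 79.8% of all genes were called, 43.5% higher and 36.2% lower. In HepG2 NC 4 of 9 were higher and 4 lower, where 77.1% were called, 39.4% higher and 37.7% lower. The synthesis genes FASN (log2 nucleus minus cytoplasm 0.80, SE 0.09 in SNU-449 and 0.99, SE 0.14 in HepG2), ACACA (0.88, SE 0.10 and 0.32, SE 0.12) and ACACB (0.98, SE 0.19 and 1.35, SE 0.14) lay to the nuclear side in both lines, as did SREBF1 (0.45, SE 0.09 and 0.61, SE 0.14). FADS1 was the most cytoplasmic member at -1.89 (SE 0.09) in SNU-449 and -1.71 (SE 0.13) in HepG2, and FADS2 was cytoplasmic too at -0.67 (SE 0.09) and -1.14 (SE 0.15). Except for ACACA in HepG2 (edgeR adjusted p = 0.018), these values had edgeR adjusted p of 3.2e-04 or less. The HepG2 ACACA call was lost in the 2 groups alone (0.34) and without nucleus NC replicate 1 (0.30).

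Other members differed between the lines in where they lay. SCD was cytoplasmic in HepG2 (-1.10, SE 0.13) and at -0.17 (SE 0.09; edgeR adjusted p = 0.083) in SNU-449, where it was called without nucleus NC replicate 1 (-0.28) or cytoplasm siPANAD replicate 1 or 2 (-0.22 each). ACLY was cytoplasmic in SNU-449 (-1.19, SE 0.09) and not called in HepG2 (-0.21, SE 0.12; edgeR adjusted p = 0.12). ELOVL6 was nuclear in SNU-449 (0.55, SE 0.13) and cytoplasmic in HepG2 (-0.57, SE 0.14). Tested directly as SNU-449 minus HepG2 in 1 fit of the 16 libraries, the ratio differed for ELOVL6 (1.15, SE 0.20; edgeR adjusted p = 5.5e-06), SCD (0.95, SE 0.17; 7.6e-06), ACLY (-0.95, SE 0.16; 4.4e-06), ACACA (0.59, SE 0.16; 0.0028) and FADS2 (0.50, SE 0.18; 0.032), 5 genes, 4 positive and 1 negative, where 33.3% of all genes were called, 20.0% positive and 13.4% negative. The FADS2 difference was 0.32 with DESeq2 or RLE size factors, 0.19 without HepG2 cytoplasm NC replicate 1, 0.47 without HepG2 nucleus NC replicate 1 or SNU-449 cytoplasm NC replicate 1, 0.54 without SNU-449 cytoplasm NC replicate 2 and 0.35 without SNU-449 nucleus NC replicate 1, none of them called. On library totals, where the median of all genes is 1.06 in SNU-449 and 0.66 in HepG2 and not 0.22 and 0.04, the sign turned for SCD (0.68), FADS2 (0.17) and ME1 (0.12, against -0.73 after TMM) in SNU-449 and for ELOVL6 (0.06) and ACLY (0.41) in HepG2.

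With siPANAD the ratio shifted towards the nucleus for 2 of the 10 genes in SNU-449, where 20.2% of all genes were called (9.69% towards the nucleus and 10.5% towards the cytoplasm), and for 1 of 9 in HepG2, where 9.89% were (4.91% towards the nucleus and 4.98% towards the cytoplasm). The shift is the nuclear minus the cytoplasmic log2 fold change and rests on the same libraries as those. For ELOVL6 in SNU-449 it was 0.98 (SE 0.19; edgeR adjusted p = 0.00018), the largest among the members, and it held under all 13 alternatives run for a shift. For SREBF1 in SNU-449 it was 0.45 (SE 0.13; edgeR adjusted p = 0.010), lost without nucleus siPANAD replicate 2 or cytoplasm siPANAD replicate 2 (0.37 each). In HepG2 the SREBF1 shift of 0.56 (SE 0.20) did not pass (edgeR adjusted p = 0.073), but was called on library totals (0.83), with no filter (0.66), and without cytoplasm NC replicate 2 (0.74) or nucleus NC replicate 2 (0.72).

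FADS2 shifted in HepG2 (0.66, SE 0.21; edgeR adjusted p = 0.043), a call lost without cytoplasm NC replicate 1 (0.34), cytoplasm siPANAD replicate 2 (0.71), nucleus NC replicate 1 (0.63) or 2 (0.68), or nucleus siPANAD replicate 1 (0.72) or 2 (0.59). In SNU-449 its shift was 0.34 (SE 0.13; edgeR adjusted p = 0.063), called on library totals (0.36) and without nucleus NC replicate 1 (0.48). The other 7 members in SNU-449 had shifts of -0.17 to 0.22 (edgeR adjusted p of 0.23 or more). In HepG2 ACLY, ACACA, ACACB, SCD and ELOVL6 had shifts of -0.06 to 0.30 (edgeR adjusted p of 0.39 or more). FASN (0.26, SE 0.20) and FADS1 (0.21, SE 0.17) were called in HepG2 on library totals only, at 0.53 and 0.48, where the median of all genes also moved by 0.27.

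**Figure D3:**
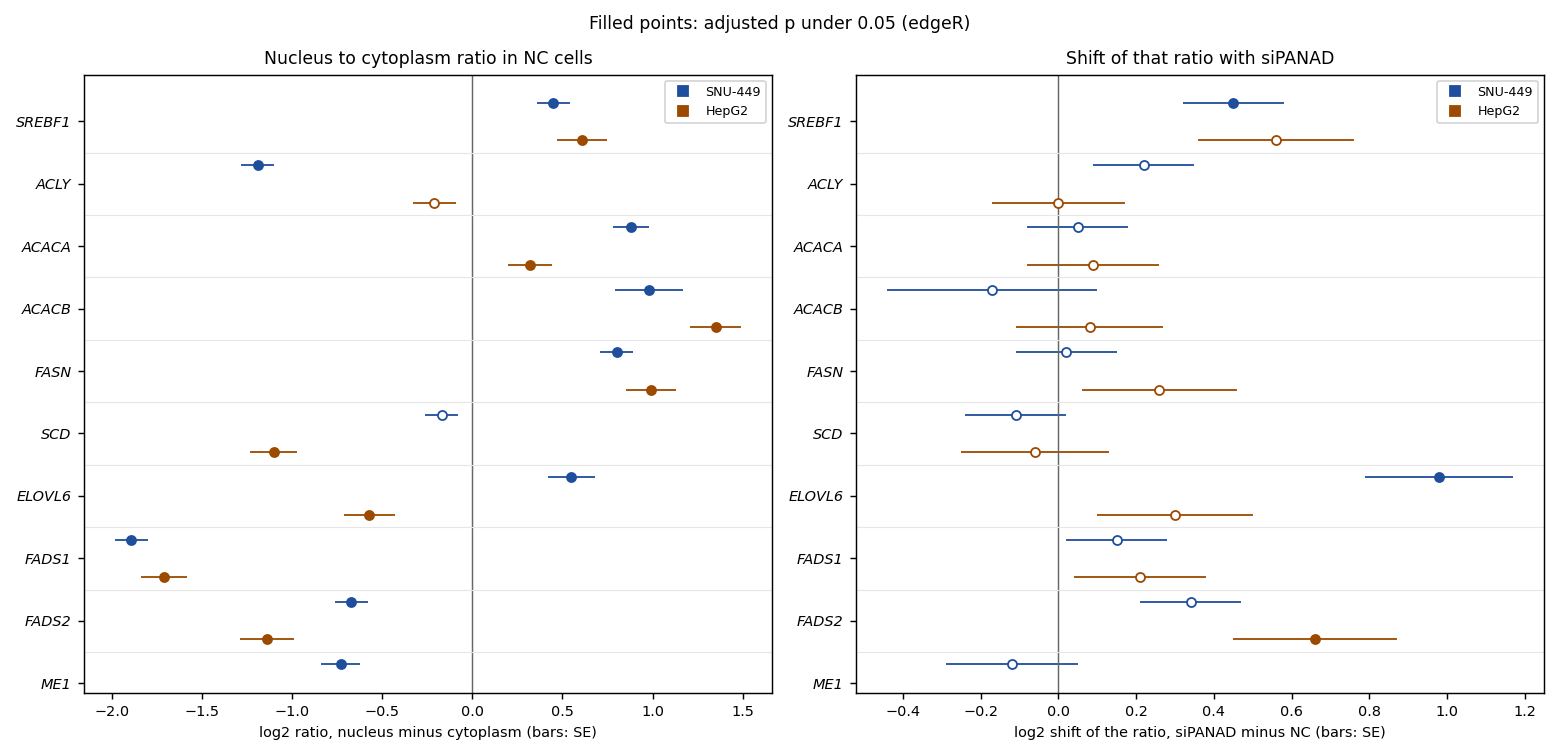
Left, log2 nucleus minus cytoplasm ratio of each gene in NC cells; right, its shift, siPANAD minus NC, with SNU-449 in blue, HepG2 in orange, bars for the standard error and filled points for an edgeR adjusted p under 0.05. FADS1 is the most cytoplasmic gene in both lines, and the filled shifts are ELOVL6 (0.98) and SREBF1 (0.45) in SNU-449 and FADS2 (0.66) in HepG2.

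The 2 lines started from different levels of these genes. In the NC nucleus 6 genes were higher and 2 lower in SNU-449 than in HepG2 (75.5% of 20459 genes called, 39.1% higher and 36.5% lower), and in the NC cytoplasm 4 were higher and 3 lower (71.2% called, 34.3% higher and 36.9% lower). SREBF1 was higher in SNU-449 in the nucleus (0.77, SE 0.12; edgeR adjusted p = 2.4e-07) and the cytoplasm (0.90, SE 0.12; 8.0e-09), as were FADS2 (1.23, SE 0.13; 2.0e-11 and 0.74, SE 0.13; 2.3e-06) and ACLY (0.34, SE 0.11; 0.0064 and 1.29, SE 0.11; 3.4e-14). The nuclear ACLY call was lost without SNU-449 nucleus NC replicate 2 (0.30), and the cytoplasmic FADS2 value was 0.49 without HepG2 cytoplasm NC replicate 2. ACACB was lower in SNU-449, at -2.05 in the nucleus (SE 0.14; edgeR adjusted p = 9.3e-18) and -1.71 in the cytoplasm (SE 0.18; 6.0e-12), and so was SCD (-0.64, SE 0.12; 4.5e-06 and -1.59, SE 0.12; 1.2e-16).

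The largest contrast was ME1. With 0 counts in both HepG2 NC libraries of a fraction, its NC level in SNU-449 was at least 360-fold higher in the nucleus and at least 542-fold higher in the cytoplasm, taking 3 counts over the HepG2 group as the limit. With siPANAD it was at least 275-fold higher in the SNU-449 cytoplasm. Whether the near absence of ME1 counts in HepG2 comes from the cells or from the table could not be told. ELOVL6 in NC was lower in SNU-449 in the cytoplasm (-0.78, SE 0.14; edgeR adjusted p = 3.8e-06) and higher in the nucleus (0.37, SE 0.14; 0.013). The nuclear value was not called with DESeq2 (0.30) or without HepG2 nucleus NC replicate 2 (0.20) or SNU-449 nucleus NC replicate 1 (0.31), and was 0.57 without HepG2 nucleus NC replicate 1. ACACA was higher in the SNU-449 nucleus (0.51, SE 0.11; edgeR adjusted p = 6.7e-05) and at -0.08 (SE 0.11; edgeR adjusted p = 0.53) in the cytoplasm. FASN and FADS1 were not called in either fraction, at -0.26 and -0.23 in the nucleus (SE 0.12 and 0.11; edgeR adjusted p = 0.053 and 0.058) and -0.10 and -0.09 in the cytoplasm (edgeR adjusted p = 0.48 each). Both nuclear values passed with DESeq2 or RLE size factors (FASN -0.32, FADS1 -0.30). FASN also passed with no filter (-0.29) and without HepG2 nucleus NC replicate 1 (-0.35) or HepG2 cytoplasm NC replicate 1 (-0.25) or 2 (-0.26), and FADS1 without HepG2 cytoplasm NC replicate 2 (-0.23).

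Levels of different genes are compared per exonic length, in RPKM. In the SNU-449 NC cytoplasm ACLY stood highest at 101.3 ± 9.74 RPKM (SD, n = 2), followed by SCD at 51.4 ± 0.105 and FASN at 49.8 ± 4.34 RPKM, which overlap, then SREBF1 at 37.4 ± 0.244, FADS2 at 22.4 ± 0.691, FADS1 at 16.9 ± 0.679 and ME1 at 12.7 ± 0.764 RPKM. ACACA (4.48 ± 0.452), ELOVL6 (1.95 ± 0.162) and ACACB (0.284 ± 0.000161 RPKM) were far below them. In the HepG2 NC cytoplasm the order was SCD at 155 ± 13.6 RPKM, FASN at 53.3 ± 7.88 and ACLY at 41.4 ± 0.0494. SREBF1 (20.0 ± 3.07) and FADS1 (18.0 ± 0.483 RPKM) came next and overlap within their spread. FADS2 had a lower mean at 13.4 ± 3.74 RPKM, and its spread overlaps that of SREBF1. ACACA (4.74 ± 0.00796), ELOVL6 (3.36 ± 0.132) and ACACB (0.935 ± 0.120 RPKM) followed. With siPANAD SCD in the HepG2 cytoplasm reached 222 ± 1.45 RPKM, the highest mean of any member in any of the 8 groups.

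The effect of siPANAD itself differed between the lines for a few members. In the nucleus the difference of effects, SNU-449 minus HepG2, was called for 3 genes, 2 of them positive (20.9% of 20459 genes called, 11.3% positive and 9.61% negative): SREBF1 at 0.72 (SE 0.17; edgeR adjusted p = 0.0016), ACACA at 0.46 (SE 0.16; 0.029) and ACACB at -0.56 (SE 0.20; 0.036). In the cytoplasm it was called for 2 genes, both positive (18.2% of all genes called, 9.17% positive and 8.98% negative), SREBF1 at 0.80 (SE 0.18; edgeR adjusted p = 0.00068) and ACACA at 0.47 (SE 0.16; 0.036). Only the SREBF1 differences held under all alternatives run. For the ratio shift edgeR and DESeq2 each called 0 members (edgeR adjusted p of 0.29 or more), 1 passed an unadjusted p of 0.05 in edgeR, and 0.484% of all genes were called by edgeR. Among the others, the FADS2 nuclear difference of -0.37 (SE 0.18; edgeR adjusted p = 0.15) passed on library totals (-0.46), and the ELOVL6 cytoplasmic difference was -0.52 (SE 0.21; edgeR adjusted p = 0.072). The difference for SCD was 0.14 (SE 0.17) in the nucleus and 0.16 (SE 0.17) in the cytoplasm, and for FADS1 0.02 and 0.05 (SE 0.16 each), none called.

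The genes around the pathway were read as 6 lists, here and below, to be set beside these shares of all genes tested. In the SNU-449 nucleus 22.1% rose and 23.9% fell, and in the SNU-449 cytoplasm 19.6% and 20.1%. In the HepG2 nucleus 22.0% rose and 23.6% fell, and in the HepG2 cytoplasm 23.7% and 24.2%. The medians of all genes were -0.01, 0.04, -0.03 and 0 in that order. Of 12 genes that supply acetyl-CoA and NADPH, 8 rose and 0 fell in the HepG2 cytoplasm (median 0.64), and 5 rose and 2 fell in the HepG2 nucleus (median 0.33). In SNU-449 5 rose and 1 fell in the cytoplasm (median 0.16), and 1 rose and 1 fell in the nucleus (median -0.04). None passed an unadjusted p of 0.05 downwards in the HepG2 cytoplasm, and DESeq2 called 0 lower as well. ACSS1, the mitochondrial enzyme, rose in all 4 comparisons, by 1.14 (SE 0.09) and 1.65 (SE 0.10) in the SNU-449 nucleus and cytoplasm and by 1.38 and 1.50 (SE 0.14 each) in the HepG2 nucleus and cytoplasm. ACSS2, the cytosolic and nuclear enzyme, rose by 2.01 and 1.43 (SE 0.13 each) in the HepG2 nucleus and cytoplasm. IDH2, a mitochondrial NADPH producer, rose in both HepG2 fractions (0.97 in the nucleus and 1.11 in the cytoplasm, SE 0.14 each) and fell in the SNU-449 nucleus (-0.52, SE 0.10).

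Of the regulators of SREBP and of lipogenic transcription, 4 rose and 3 fell of 14 tested in the SNU-449 nucleus (median 0.08), 1 rose and 4 fell in the SNU-449 cytoplasm (-0.06), 5 rose and 3 fell of 13 in the HepG2 nucleus (0.05) and 2 rose and 3 fell in the HepG2 cytoplasm (-0.18). NR1H3, the liver X receptor gene that activates SREBF1 transcription, rose by 0.77 and 1.05 (SE 0.13 each) in the HepG2 nucleus and cytoplasm and by 0.50 (SE 0.11) in the SNU-449 nucleus. RXRA, another regulator of this list, fell in the SNU-449 nucleus and cytoplasm (-0.74 and -0.58, SE 0.10 each). MBTPS1, also of this list, fell in the SNU-449 cytoplasm (-0.68, SE 0.10). MLXIPL, which encodes the carbohydrate-responsive factor ChREBP, rose in the HepG2 nucleus (0.70, SE 0.13). MID1IP1, which helps acetyl-CoA carboxylase to polymerise, fell in the HepG2 cytoplasm (-1.16, SE 0.12) and rose in the SNU-449 nucleus (0.78, SE 0.09). INSIG2, which retains the SREBP carrier in the endoplasmic reticulum, fell in the HepG2 nucleus and cytoplasm (-0.79 and -0.93, SE 0.27 each). INSIG1, with the same role, fell in the SNU-449 cytoplasm (-0.53, SE 0.11) and nucleus (-0.38, SE 0.11). INSIG1 was listed at 0 counts in all 8 HepG2 libraries, an entry picked out after its values were seen, and whether these zeros come from the cells or from the table could not be told.

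Other elongation and desaturation enzymes did not follow SCD, FADS1 and FADS2 as a list. In the HepG2 nucleus 2 rose and 7 fell of 11 tested (median -0.36), in the HepG2 cytoplasm 4 rose and 2 fell (0.21), in the SNU-449 nucleus 2 rose and 5 fell of 13 (-0.16), and in the SNU-449 cytoplasm 4 rose and 4 fell (0.16). FADS3, the third gene of the desaturase cluster, fell in the HepG2 nucleus (-0.92, SE 0.14) and cytoplasm (-0.83, SE 0.14). It also fell in the SNU-449 nucleus (-0.30, SE 0.10). SCD5, the second stearoyl-CoA desaturase gene, fell in the SNU-449 nucleus (-0.61, SE 0.10), and ELOVL5, an elongase of polyunsaturated fatty acids, rose in the HepG2 cytoplasm (0.66, SE 0.13).

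Genes of fatty acid activation and glycerolipid synthesis split, with 5 up and 4 down of 17 in the HepG2 nucleus (median -0.03), 4 up and 5 down in the HepG2 cytoplasm (-0.14), 4 up and 5 down of 15 in the SNU-449 nucleus (-0.06) and 2 up and 4 down in the SNU-449 cytoplasm (-0.10). DGAT1, which completes triglyceride synthesis, rose in the HepG2 nucleus (1.76, SE 0.14). GPAT3, an acyltransferase of the first step of that synthesis, fell in both HepG2 fractions (-1.94 in the nucleus and -1.69 in the cytoplasm, SE 0.14 each). Of the acyl-CoA synthetases, ACSL3 fell in the HepG2 cytoplasm (-1.98, SE 0.13). ACSL6 rose in the HepG2 nucleus (1.96, SE 0.18) and cytoplasm (2.16, SE 0.27). In SNU-449 LPIN3 rose in the nucleus (0.78, SE 0.11) and GPAT4 fell in the cytoplasm (-0.85, SE 0.10).

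Of the fatty acid oxidation genes tested, there were 6 up and 1 down of 16 in the HepG2 nucleus (median 0.17), 8 up and 1 down in the HepG2 cytoplasm (0.17), 7 up and 4 down of 18 in the SNU-449 nucleus (0.19) and 9 up and 3 down in the SNU-449 cytoplasm (0.29). CPT2, the inner carnitine palmitoyltransferase, rose by 1.15 (SE 0.19) in the SNU-449 nucleus, 0.90 (SE 0.18) in the SNU-449 cytoplasm and 1.13 (SE 0.17) in the HepG2 cytoplasm. ACADL had the largest change of this list in the SNU-449 nucleus, where it fell (-1.83, SE 0.26). ACADS, the short-chain acyl-CoA dehydrogenase, rose in all 4 comparisons. The values were 0.51 and 0.90 (SE 0.09 each) in the SNU-449 nucleus and cytoplasm. In the HepG2 nucleus and cytoplasm they were 0.81 and 0.99 (SE 0.17 each). Of the 7 genes of mitochondrial fatty acid synthesis, 4 rose and 0 fell in each cytoplasm (median 0.36 in HepG2 and 0.38 in SNU-449; 0 lower also at an unadjusted p under 0.05 and with DESeq2), 2 rose and 1 fell in the HepG2 nucleus (0.15), and 3 rose and 1 fell in the SNU-449 nucleus (0.24). HSD17B8, a subunit of the ketoacyl reductase of that pathway, rose in all 4 comparisons, by 2.01 (SE 0.20) and 1.67 (SE 0.22) in the SNU-449 nucleus and cytoplasm and by 0.92 and 1.53 (SE 0.15 each) in the HepG2 nucleus and cytoplasm.

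**Figure D4:**
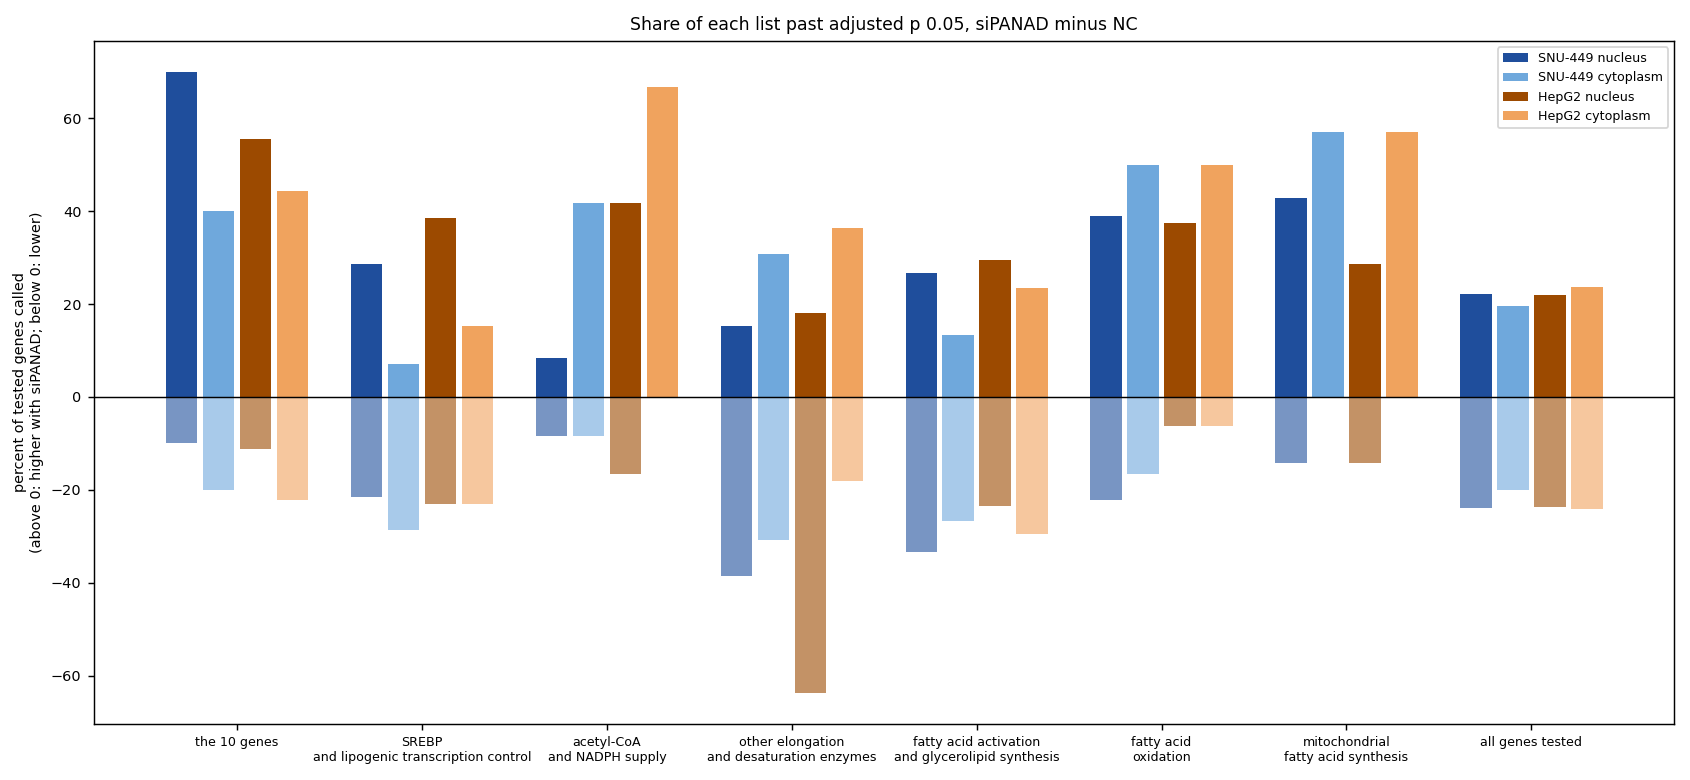
Percent of tested genes of each list called higher (above 0) or lower (below 0) with siPANAD at an edgeR adjusted p under 0.05, in 4 comparisons, beside the same for all genes tested (right). Of the 10 genes, 7 are above 0 and 1 below in the SNU-449 nucleus; of the 12 supply genes, 8 are above and 0 below in the HepG2 cytoplasm.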

How the data were processed

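The deposited tables, 1 per line, held raw counts per gene with Ensembl identifiers. Per the submitters' processing notes, the authors used Trim Galore 0.6.4 and HISAT2 2.2.1 with hg38; the counting program, annotation and strand setting are not given in the sources used here, and libraries were directional per the labels' protocols. Of 67938 identifiers 61444 matched a symbol; the rest took 0.0414% of counts in SNU-449 and 0.0306% in HepG2. ANK2, whose record was broken over lines, was left out. Positions came from GENCODE on GRCh38, promoter windows from RefSeq (GRCh38.p14).

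Counts were tested in R 4.3.3 with edgeR 4.0.16 (filterByExpr with a minimum count of 10, TMM, robust glmQLFit, two-sided glmQLFTest, Benjamini-Hochberg adjustment over all genes tested, threshold 0.05). Each line's 8 libraries were fitted together, and differences between lines in 1 fit of 16 libraries. The procedure was tested on simulated data. The biological coefficient of variation was 0.0728 in SNU-449 and 0.101 in HepG2. A count of 0 allows up to 3 counts, or 0.099 to 0.185 CPM; this and the SDs of 2 libraries leave counting and culture error only roughly known. TMM hides a change shared by most genes. RPKM divides TMM-normalised CPM of the 16-library fit by exonic length, taken over all annotated exons of a gene. Alternatives were library totals, RLE size factors, no filter, DESeq2 1.42.0, a replicate block, the 2 groups alone (within a line) and leaving out each library.

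All 10 members are named; of each other list, in each knockdown comparison, at most the 3 largest changes past the threshold with groups that do not overlap could be named. A list gene named for some comparisons may also have passed in others, where its value is given for only some genes. Members and lists were chosen with earlier results of these data known.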

Additional observations from a re-analysis of the deposited data

Results flagged for a closer look

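The response of 3 genes to siPANAD differed between the lines by edgeR's test of the difference itself (SNU-449 effect minus HepG2 effect, log2). SREBF1 differed by 0.72 in the nucleus (SE 0.17; edgeR adjusted p = 0.0016), where its log2 fold change was 0.23 in SNU-449 and -0.51 in HepG2, and by 0.80 in the cytoplasm (SE 0.18; edgeR adjusted p = 0.00068), where it was -0.22 in SNU-449 and -1.06 in HepG2. ACACA differed by 0.46 in the nucleus (SE 0.16; edgeR adjusted p = 0.029), from effects of 0.35 in SNU-449 and -0.12 in HepG2, and by 0.47 in the cytoplasm (SE 0.16; edgeR adjusted p = 0.036), from 0.30 in SNU-449 and -0.21 in HepG2. ACACB differed by -0.56 in the nucleus (SE 0.20; edgeR adjusted p = 0.036), from 0.24 in SNU-449 and 0.79 in HepG2.

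The 2 SREBF1 differences held under all alternatives run. The nuclear ACACA difference was lost on library totals (0.36), with no filter (0.43), and without HepG2 nucleus NC replicate 1 (0.45), HepG2 nucleus siPANAD replicate 1 (0.44) or 2 (0.47), SNU-449 nucleus NC replicate 1 (0.42) or SNU-449 nucleus siPANAD replicate 1 (0.46) or 2 (0.45). The settings that lost the cytoplasmic ACACA difference included RLE size factors (0.43) and leaving out HepG2 cytoplasm siPANAD replicate 1 (0.50) or 2 (0.44), SNU-449 cytoplasm NC replicate 1 (0.37) or SNU-449 cytoplasm siPANAD replicate 1 (0.43) or 2 (0.51). The ACACB difference was lost with DESeq2 (-0.56) and without HepG2 nucleus NC replicate 1 (-0.58) or 2 (-0.54), HepG2 nucleus siPANAD replicate 1 (-0.54) or 2 (-0.59), SNU-449 nucleus NC replicate 1 (-0.52) or 2 (-0.61), or SNU-449 nucleus siPANAD replicate 1 (-0.36). What moves with these differences was not tested.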

How the results depend on the processing

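Of the 26 knockdown calls of members, 14 held under all 14 alternatives within a line. Leaving out each library in turn gave, for members called, 6 to 8 in the SNU-449 nucleus, 3 to 7 in the SNU-449 cytoplasm, 4 to 7 in the HepG2 nucleus, 3 to 7 in the HepG2 cytoplasm, 1 to 3 and 0 to 2 for the shifts in SNU-449 and HepG2, and 1 to 3 and 1 to 2 for the line differences of the nuclear and cytoplasmic effect. The HepG2 shift had 1 member called, 4 on library totals and 2 with no filter; the cytoplasmic line difference had 2, and 1 with RLE size factors or the replicate block. Over all genes the HepG2 shift had 1730 calls and 3057 on library totals (841 to 2346 leaving out a library), the SNU-449 shift 3614 (2392 to 3650), and the line difference of the shift 99 calls, 523 on library totals, 206 with no filter and 244 with DESeq2 (29 to 483). Library totals moved the median of all genes to 0.14 in the HepG2 nucleus, -0.12 in the HepG2 cytoplasm and 0.27 for the HepG2 shift, against -0.03, 0.00 and 0.00. On them the sign turned for SCD (0.68), FADS2 (0.17) and ME1 (0.12) in the SNU-449 NC ratio, ACLY (0.41) and ELOVL6 (0.06) in the HepG2 NC ratio, ACACA (0.04) and FASN (0.05) in the HepG2 nucleus and FADS1 in the line difference of the NC ratio (0.05; -0.15 after TMM, and called with DESeq2 at -0.32), and ELOVL6 in the HepG2 cytoplasm was 0.00. Leaving out a library gave ELOVL6 -0.01 to 0.15 in the HepG2 cytoplasm and ACACB 0.00 to 0.43 in the SNU-449 nucleus. Among the lists, DESeq2 called 4 and not 7 other elongation and desaturation genes in the SNU-449 nucleus, library totals 8 and not 5 regulators in the HepG2 cytoplasm, and no filter or DESeq2 2 and not 4 mitochondrial synthesis genes there; leaving out a library gave as few as 3 of 8 regulators and 4 of 9 elongation genes in the HepG2 nucleus. Same-numbered replicates did not deviate together (correlations of -0.21 to 0.11 between groups), so the numbers do not pair them. The replicate block moved 2 member calls, ACACA in the cytoplasmic line difference (0.47) and ELOVL6 in the NC nucleus between the lines (0.30). The causes were not tested.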
